A study of Rattus norvegicus with 16 samples.

Results

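The contrast of siScramble with wild type (wt) cells was examined in PCCl3 cells, a differentiated rat thyroid follicular cell line. No array of the series held this contrast directly. Cells transfected with an siRNA against *Pax8* (siPax8 cells) were hybridized to 2-colour arrays against wt cells, or against siScramble cells, which had received a scrambled siRNA, and the difference between these comparisons gave an indirect ratio of siScramble over wt. All 16 arrays of the series, out of 16, entered it: 8 per comparison, from 4 biological replicates, each hybridized once with siPax8 RNA in Cy5 and once with siPax8 RNA in Cy3. Each siRNA was used at 10 ng/ml with Lipofectamine, and the cells of all 3 conditions grew in medium with 5% donor calf serum and a hormone mixture that included TSH. The labels call the cells without siRNA wild type, the methods list them as treated with lipofectamine, and a supplementary legend calls wt untransfected. Because these sources differ, whether wt cells received the lipid is not settled, and effects of siRNA and of transfection lipid cannot be told apart in the contrast. The design scheme of the study names the same siPax8 samples in both comparisons, and a single scrambled siRNA stood for introduced siRNA in general.

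Double-stranded RNA in the cytoplasm or in endosomes is read by vertebrate cells as a sign of virus. Sensors such as PKR (encoded by *Eif2ak2*), the RIG-I-like receptors and *Tlr3* bind it, and interferon regulatory factors then switch on interferon beta. Secreted interferon acts through the JAK kinases on a complex of STAT proteins and *Irf9*, which raises antiviral effectors such as the 2'-5' oligoadenylate synthetases (Oas genes) and the Mx GTPases. Short interfering RNAs are meant to pass below this detection, and a scrambled siRNA is the usual control for the part of the response that does not depend on the target. In thyroid follicular cells, interferons are also known for effects on iodide handling and on antigen presentation.

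Per array, 54% to 60.8% of Cy3 signals and 52% to 59.1% of Cy5 signals stood well above background, and 2 spots or fewer were saturated. Precision is limited by how many arrays there were. The p-values measure the spread between the deposited biological replicates. Values are log2 ratios from intensities corrected for background with an offset of 50, which shrinks the ratios of dim probes. The ratios follow the dyes in the labels, so that a positive indirect ratio is a higher level in siScramble cells. The study's text words its numbers of lower and higher probes for siPax8 cells relative to each control. Of the thyroid markers, *Nkx2-1* was not analysed here, and *Pax8*, *Foxe1*, *Hhex*, *Tg*, *Slc5a5* and *Tshr* were each well above background in wt and in siScramble cells on 8 of 8 arrays. Of 11 measured markers of leukocytes, endothelium, fibroblasts and C cells, *Cd14*, *Col1a2* and *Calca* were above background on 8 of 8 arrays in both, *Csf1r* on 4 wt and 2 siScramble arrays, and *Adgre1* on 2 wt arrays. *Cd3g* and *Cd79b* each passed on 1 siScramble array, and *Itgam*, *Pecam1*, *Col3a1* and *Pdgfrb* on none of either condition. None of the 11 was called by limma, and the median of their indirect ratios was -0.01. Unadjusted counts of genes also ask that each probe of a gene pass, by which none of the 11 had an unadjusted p under 0.05. Of the 2 probes of *Calca*, that above background gave -0.19 (limma adjusted p = 0.0207) and that at background gave -0.04. *Itgam* and *Calca* are named by the rule given with the methods, and the other markers were named after their values were seen.

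Of 41012 probes, 677 were higher in siScramble than in wt cells (1.65%) and 732 were lower (1.78%) by limma with Benjamini-Hochberg adjustment at the adjusted p threshold of the study, 0.005. The higher probes had a median indirect log2 ratio of 0.38, the lower ones of -0.38. Changes beyond 1 in size were found for 36 higher and 10 lower probes. A lower signal can come from fewer cells of a type or from less RNA per cell, which cannot be told apart in such RNA. In each of the 1409 called probes, the 4 replicate values against wt did not overlap the 4 against siScramble. The threshold on these same values nearly requires this, so it is no separate support. Some genes that were not called, such as *Ran*, did not overlap either, and the share of all genes without overlap was not counted. The median SD between replicates was 0.0632 against wt and 0.0602 against siScramble over all probes, and the median SE of an indirect ratio was 0.0461. A name was found for 10768 probes, which measured 8899 genes, and 839 of the called probes stayed without a name. Of the named genes, 158 were called higher (1.78%) and 248 lower (2.79%), 4.56% in either direction, where a gene was called when each of its probes passed the threshold in 1 direction. At an unadjusted limma p under 0.05 for each probe stood 2065 of the 8899 named genes, the background for the unadjusted counts of the lists. An indirect ratio above 0 was found for 4293 named genes and one below 0 for 4606, the background for counts of signs. The lists of functions were chosen with earlier results of these data known, so their counts are given beside these shares as a description.

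Among the sensors of double-stranded RNA and other nucleic acids, 2 of 11 measured genes rose, none fell, and the median indirect ratio was -0.02. *Eif2ak2*, the kinase that stops translation when it binds double-stranded RNA, had log2 ratios of siPax8 over wt of 1.1, 0.92, 0.79 and 0.92 in replicates 1 to 4 and of siPax8 over siScramble of 0.12, 0.18, 0.24 and 0.12. Every siPax8 over wt value lay above every siPax8 over siScramble value, and the indirect ratio was 0.77 ± 0.07 (SE, n = 4 and 4; limma adjusted p of its 2 probes at most 0.00115), a 1.70-fold higher level in siScramble cells. *Adar*, which edits adenosines in double-stranded RNA, gave 0.56, 0.53, 0.59 and 0.54 against wt and 0.19, 0.10, -0.02 and 0 against siScramble. Its indirect ratio was 0.49 ± 0.05 (SE; limma adjusted p = 0.00016). *Tlr3*, the endosomal receptor for double-stranded RNA, gave 0.12, -0.11, 0.01 and 0.04 against wt and -0.02, -0.02, -0.05 and -0.21 against siScramble, values that overlap. Its indirect ratio of 0.09 ± 0.07 (SE) was not called (limma adjusted p = 0.438). The remaining values were 0.03 for *Tlr9*, -0.02 for the adaptor *Myd88*, -0.03 for *Trim25*, -0.04 for the adaptor *Mavs*, -0.08 for *Rnf135* and -0.14 for *Prkra*. *Aim2* was not well above background on any wt or siScramble array. The RIG-I-like receptor genes were not analysed here. *Eif2ak2* lost its call without replicate 4 against wt, with Agilent's processed intensities and with siPax8 in Cy5 alone, and its indirect ratio lay between 0.63 and 0.90 over the 18 alternative settings. That of *Adar* was 1.09 with Agilent's intensities.

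Of the genes of interferon signalling, 5 of 17 rose, none fell, and the median indirect ratio was 0.19. *Ifnb1*, which encodes interferon beta, was well above background in siScramble cells on 8 of 8 arrays and in wt cells on 1 of 8. It gave log2 ratios of 0.35, 0.37, 0.38 and 0.46 against wt and 0.02, -0.16, 0.09 and -0.01 against siScramble. All values against wt were positive and above those against siScramble, which lay around 0. The indirect ratio was 0.41 ± 0.06 (SE; limma adjusted p = 0.000879), and it was 3.06 with Agilent's processed intensities. These carry no offset and were also normalized in another way, and no setting changed the offset alone. The size for this dim probe thus depends on the processing. With siPax8 in Cy3 alone the call was lost. *Ifng*, which encodes interferon gamma, was above background on no wt array and on 3 siScramble arrays, with an indirect ratio of 0.

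*Irf9*, the DNA-binding subunit of the interferon-activated complex, gave 1.99, 1.97, 1.79 and 1.59 against wt and 0.34, 0.36, 0.10 and 0.04 against siScramble. *Irf7*, the regulatory factor that amplifies interferon production, gave 2.48, 2.39, 2.30 and 2.29 against wt and 0.86, 0.84, 0.64 and 0.63 against siScramble. *Usp18*, a protease that removes Isg15 and dampens the interferon receptor, gave 2.50, 2.24, 1.99 and 2.03 against wt and 0.74, 0.67, 0.23 and 0.25 against siScramble. For each of these 3 genes the values of the comparisons were separated by more than 1 on the log2 scale. Their indirect ratios were 1.63 ± 0.12 for *Irf9*, 1.62 ± 0.08 for *Irf7* and 1.72 ± 0.18 for *Usp18* (SE, n = 4 and 4), which is 3.09-, 3.08- and 3.30-fold, with limma adjusted p of 5.47e-06, 5.97e-07 and at most 9.29e-05. *Irf2* rose by less, with an indirect ratio of 0.38 (limma adjusted p = 0.00495), and lost the call in 7 of the 8 fits that each left out 1 replicate, with Agilent's intensities and with either dye orientation alone. With Agilent's intensities the ratios were 2.75 for *Usp18* and 0.87 for *Irf2*.

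Members of the pathway that did not pass the test had indirect ratios of 0.27 for *Stat2*, 0.19 for *Irf3*, 0.19 for *Irf1*, 0.17 for *Jak2*, 0.12 for *Ptpn2*, 0.06 for *Ifngr1*, 0.03 for *Stat3*, -0.09 for *Ptpn6* and *Socs3* and -0.16 for *Socs1*. The inhibitors among them, *Socs1*, *Socs3*, *Ptpn2* and *Ptpn6*, lay between -0.16 and 0.12.

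The antiviral effectors held the 2 largest rises among the called named genes, *Oas1a* and *Mx2*. Of 34 measured genes, 15 rose (44.1%, against 1.78% of all named genes) and none fell. A value above 0 was found for 32 of the 34, against 4293 of all 8899 named genes. The median was 0.56, against -0.00288 over all named genes. Within the 4 slides, each of which carried 2 arrays of each comparison, the median lay between 0.47 and 0.63.

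**Figure D1:**
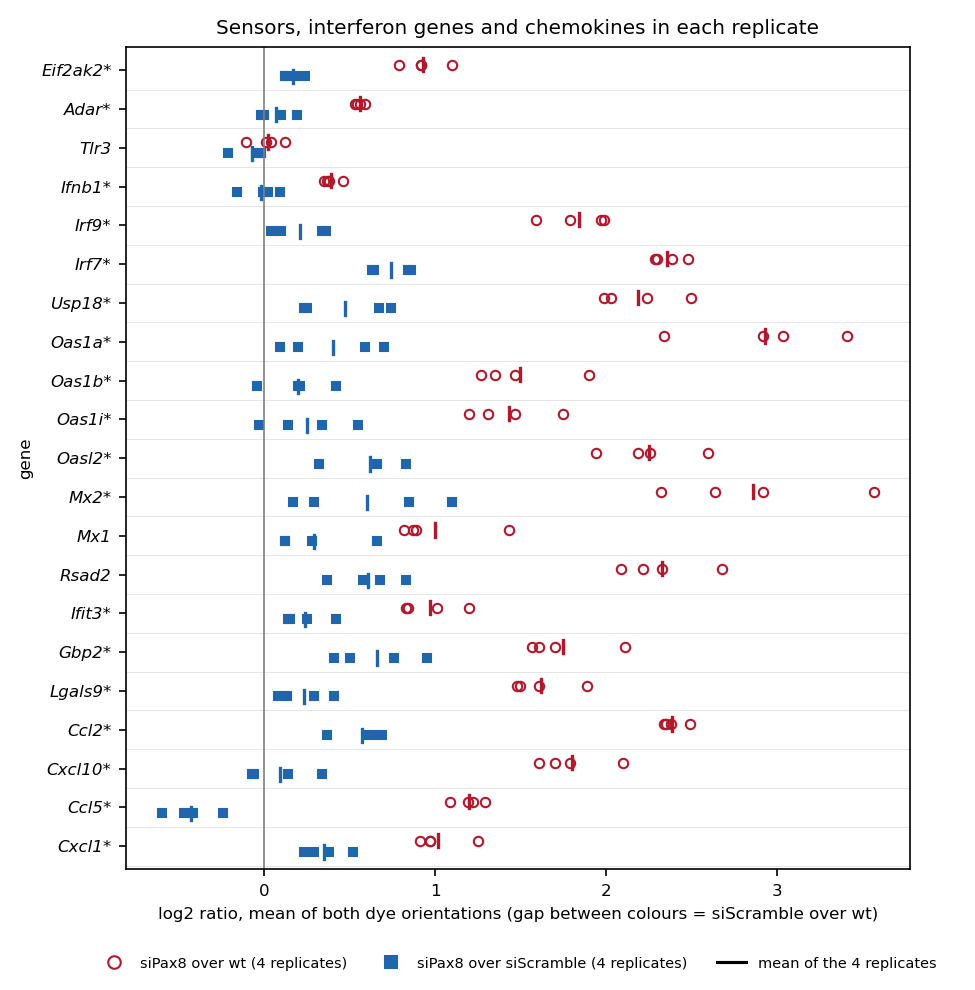
Log2 ratios of siPax8 over wt (open circles) and of siPax8 over siScramble (filled squares) in the 4 replicates of 21 sensor, interferon, effector and chemokine genes, with vertical lines at the means; an asterisk marks genes called in the indirect contrast, and the horizontal gap between the colours is the indirect ratio. The gap is widest for *Oas1a* at 2.53 and *Mx2* at 2.26, whereas the symbols of *Tlr3* overlap.

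*Oas1a*, which makes 2'-5' oligoadenylates in the presence of double-stranded RNA, gave 3.41, 3.04, 2.92 and 2.34 against wt and 0.70, 0.59, 0.20 and 0.09 against siScramble. Its lowest value against wt exceeded its highest against siScramble by more than 1. The indirect ratio was 2.53 ± 0.27 (SE, n = 4 and 4; limma adjusted p = 3.37e-05), or 5.78-fold, and it lay between 2.32 and 2.64 within the slides. *Oas1b*, *Oas1i* and *Oasl2* had indirect ratios of 1.30, 1.18 and 1.63, and *Oasl* of 0.61, each called. Arrays cannot fully separate near-identical members of the Oas1 family, so the values of *Oas1a*, *Oas1b* and *Oas1i* may share signal. *Mx2*, a GTPase that blocks viral replication, gave 3.57, 2.92, 2.64 and 2.32 against wt and 1.1, 0.85, 0.29 and 0.17 against siScramble. Its indirect ratio was 2.26 ± 0.35 (SE; limma adjusted p = 0.000378), or 4.80-fold. *Mx2* was above background on 6 of 8 wt arrays, and with Agilent's intensities, which carry no offset, its ratio was 4.43, above the 2.6 of *Oas1a*. In that setting *Oas1b* had 2.36 and *Oasl* 2.05.

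Promoters of some called genes are shown because they carry the sequence by which the interferon-activated complexes are known to bind, the interferon-stimulated response element. Its core repeats GAAA after a gap of 2 bases. Windows could be drawn only for genes with a match. *Mx2*, *Oasl*, *Usp18*, *Irf9* and *Slfn4* had none, whether because no promoter was found or because it held no match. RefSeq promoters (assembly GRCr8, 250 bases before to 50 after the gene start) were searched on both strands for GAAA, any 2 bases, GAAA, with overlapping matches counted. The windows of 60 bases below read 5′ to 3′ along the gene, with the GAAA pairs in capitals, or their reverse complements TTTC where the match lies on the other strand. The first 3 come from the Oas1 cluster on chromosome 12, at chr12:41330400-41330459 (+), chr12:41395877-41395936 (-) and chr12:41285165-41285224 (+).
Oas1a: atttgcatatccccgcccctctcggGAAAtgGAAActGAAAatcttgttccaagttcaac
Oas1b: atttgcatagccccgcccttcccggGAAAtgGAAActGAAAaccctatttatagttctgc
Oas1i: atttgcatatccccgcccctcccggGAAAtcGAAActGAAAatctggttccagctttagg
Each of these 3 holds 3 GAAA repeats in a row, that is 2 overlapping matches. The windows of *Oas1a* and *Oas1i* were identical at 52 of 60 bases and those of *Oas1a* and *Oas1b* at 49. In them the first match began 41, 59 and 36 bases before the start of *Oas1a*, *Oas1b* and *Oas1i*.
The next windows belong to called genes of other roles, *Oasl2* at chr12:47383302-47383361 (-), *Irf7* at chr1:205800058-205800117 (-), *Eif2ak2* at chr6:21941113-21941172 (+), *Ifit3* at chr1:241527257-241527316 (+), *Gbp2* at chr2:234005671-234005730 (+) and *Cxcl10* at chr14:15988816-15988875 (+).
Oasl2: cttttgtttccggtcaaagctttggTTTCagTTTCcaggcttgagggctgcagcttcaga
Irf7: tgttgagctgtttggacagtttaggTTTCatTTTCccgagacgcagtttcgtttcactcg
Eif2ak2: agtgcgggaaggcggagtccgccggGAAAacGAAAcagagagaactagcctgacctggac
Ifit3: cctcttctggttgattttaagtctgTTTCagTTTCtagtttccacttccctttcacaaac
Gbp2: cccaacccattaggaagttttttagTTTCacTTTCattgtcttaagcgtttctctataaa
Cxcl10: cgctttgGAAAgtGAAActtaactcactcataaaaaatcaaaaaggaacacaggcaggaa
The match began 151 bases before the gene start in *Oasl2*, 69 in *Irf7*, 16 in *Eif2ak2*, 44 in *Ifit3*, 31 in *Gbp2* and 243 in *Cxcl10*.

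A promoter was found for 7236 of the 8899 named genes, and 273 of them held the motif (3.77%, the same share as among all 27457 genes of the promoter table). Among the genes called higher it was 15 of 118 with a promoter (12.7%), among those called lower 5 of 187 (2.67%), and among those not called 3.65%. Of the 20 genes called higher with an indirect ratio above 1, 14 had a promoter and 9 of these held the motif (64.3%). These 9 include *Oas1a*, *Oas1b* and *Oas1i*, and *Lgals5* and *Lgals9*. Within each of these families the windows are alike and array signal may be shared, so the 9 are not all separate cases. By function, 17 of 29 antiviral effectors with a promoter held it (58.6%), 8 of 20 genes of MHC class I presentation, 1 of 27 chemokines and cytokines, none of 20 immediate early genes and none of 13 thyroid genes. Effector genes are partly known by this element, and a match describes the letters of a window, not a bound site.

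Several effectors were dim in wt cells. *Ifit3*, which binds viral RNA together with related proteins, was not well above background on any wt array and was above it on 8 of 8 siScramble arrays. Its values were 1.20, 0.83, 0.84 and 1.01 against wt and 0.42, 0.15, 0.14 and 0.25 against siScramble. The indirect ratio was 0.73 ± 0.11 (SE; limma adjusted p = 0.000435), and 3.09 with Agilent's intensities. Since wt signals did not stand above background, neither value fixes the size of the rise. *Mx1* was likewise above background on no wt and on 8 siScramble arrays, with 1.43, 0.87, 0.82 and 0.89 against wt and 0.66, 0.28, 0.12 and 0.12 against siScramble. Its indirect ratio of 0.71 ± 0.19 (SE) did not pass the threshold (limma adjusted p = 0.0113), and it was 3.78 with Agilent's intensities.

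*Rsad2*, which encodes the antiviral enzyme viperin, had 2 probes that disagreed in size. One gave an indirect ratio of 3.05 (limma adjusted p = 1.63e-06), the largest of any probe named here, and the other was above background on no wt array and gave 0.39 (0.0238). Their means were 2.68, 2.22, 2.09 and 2.33 against wt and 0.83, 0.68, 0.37 and 0.58 against siScramble, and the gene was not called. *Ifit2* likewise had a probe at 1.16 (limma adjusted p = 8.31e-05) and another near background at 0.05. *Ifit1*, *Apobec1*, *Ly6e* and *Plscr1* were not above background on any wt or siScramble array.

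Other effectors that rose were *Lgals9* (1.39), a secreted galectin, *Slfn4* (1.25), *Ifi27l2b* (1.16), the guanylate-binding GTPase *Gbp2* (1.09), *Sp110* (0.68), *Lgals3bp* (0.63), the immunity-related GTPase *Irgm* (0.58) and the zinc-finger RNA-binding protein *Zc3hav1* (0.25). *Lgals9* gave 1.89, 1.61, 1.5 and 1.48 against wt and 0.41, 0.29, 0.08 and 0.13 against siScramble, and *Gbp2* gave 2.11, 1.70, 1.61 and 1.57 against wt and 0.95, 0.76, 0.50 and 0.41 against siScramble. Both sets were separated between the comparisons. *Slfn4* gave 2.44, 1.64, 1.76 and 1.74 against wt and 1.08, 0.57, 0.36 and 0.54 against siScramble, and 4 of the 8 fits with 1 replicate left out lost its call. Over the 18 alternative settings its indirect ratio lay between 1.07 and 2.30, the latter with Agilent's intensities. The call of *Zc3hav1* was lost in 7 of the 8 fits with 1 replicate left out, with Agilent's intensities and with either dye orientation alone. Agilent's intensities also ended the calls of *Gbp2*, *Ifi27l2b*, *Lgals3bp* and *Sp110*, siPax8 in Cy5 alone that of *Sp110*, and siPax8 in Cy3 alone that of *Irgm*. *Bst2* (0.36), *Ube2l6* (0.54), *Ifi44l* (0.49), *Ifi35* (0.28), *Ifi47* (0.23), *Nmi* (0.18), *Trim5* (0.17), *Isg20* (0.14), *Slfn9* (0.13), *Tor3a* (0.09), *Ifitm2* (0) and *Psmb8* (-0.07) did not pass the threshold. With Agilent's intensities the ratio was 2.17 for *Ifi44l*, 1.88 for *Ifi47*, 1.93 for *Ifit2* and 3.65 for *Rsad2*.

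*Lgals5*, a galectin close in sequence to *Lgals9*, ranked 4 among all rises and belonged to none of the lists. It gave 2.27, 2.09, 1.96 and 1.81 against wt and 0.52, 0.36, 0.15 and 0.18 against siScramble, an indirect ratio of 1.73 (limma adjusted p = 5.15e-06). The motif windows of *Lgals5* and *Lgals9* were identical at 53 of 60 bases, and signal shared between these genes was not tested.

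Of 37 measured chemokines and cytokines, 4 rose and none fell, and the median was 0.02. *Ccl2*, which draws monocytes, gave 2.49, 2.38, 2.35 and 2.34 against wt and 0.69, 0.64, 0.60 and 0.37 against siScramble. All values against wt exceeded 2, none against siScramble reached 1, and the indirect ratio was 1.82 ± 0.08 (SE; limma adjusted p = 5.74e-07), or 3.52-fold. *Ccl2* was above background on 7 of 8 wt arrays, and its ratio was 4.21 with Agilent's intensities. *Cxcl10*, which draws T cells and is known as an interferon target, gave 2.10, 1.61, 1.70 and 1.79 against wt and 0.34, 0.14, -0.07 and -0.06 against siScramble. Its indirect ratio was 1.71 (limma adjusted p = 9.15e-06), while the direct ratio of siPax8 over siScramble, 0.09 ± 0.19 (SD, n = 4), was not called (limma adjusted p = 0.591). *Ccl5*, another T cell chemokine, gave 1.19, 1.09, 1.29 and 1.22 against wt and -0.42, -0.47, -0.24 and -0.60 against siScramble. It was thus highest in siScramble cells of the 3 conditions, with an indirect ratio of 1.63 and a direct ratio of siPax8 over siScramble of -0.43 (limma adjusted p = 7.53e-07 and 0.00465). *Cxcl1*, a neutrophil chemokine, rose by less, with 1.25, 0.97, 0.97 and 0.91 against wt and 0.52, 0.38, 0.23 and 0.29 against siScramble, and lost its call with siPax8 in Cy3 alone. With Agilent's intensities the ratio was 3.23 for *Ccl5* and 1.14 for *Cxcl1*. *Cxcl12* (-0.33) and *Csf1* (0.22) were the members with the largest ratios that did not pass.

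Of the MHC class I presentation genes, 1 of 21 rose, 17 had a value above 0 (against 4293 of all 8899 named genes), and the median was 0.16. *RT1-S3*, a class Ib molecule, gave 0.75, 0.67, 0.48 and 0.58 against wt and 0.30, 0.27, 0.15 and 0.29 against siScramble, and its call (0.37) was lost in 7 of the 8 fits with 1 replicate left out, with Agilent's intensities and with siPax8 in Cy5 alone. *RT1-M3-1* (0.41) and the immunoproteasome subunit *Psmb10* (0.30) did not pass the threshold. The class II genes went the other way: 3 of 13 fell, none rose, 12 had a value below 0 (against 4606 of all 8899 named genes) and the median was -0.10. *Cd74*, the invariant chain that guards the class II groove, gave -1.1, -1.02, -0.90 and -1.01 against wt and -0.33, -0.29, -0.27 and -0.37 against siScramble. *RT1-Da*, a class II alpha chain, gave -0.83, -0.86, -0.90 and -0.92 against wt and -0.22, -0.27, -0.25 and -0.30 against siScramble. In both genes all 8 values were below 0 and the comparisons were well separated, with indirect ratios of -0.69 ± 0.05 and -0.62 ± 0.03 (SE; limma adjusted p of 1.25e-05 and at most 2.01e-05). *Rfxap*, a subunit of the factor that drives class II promoters, fell by 0.28 on the log2 scale and lost its call in 2 of these 8 fits, with Agilent's intensities and with either dye orientation alone. The ratio of *RT1-Da* was -1.19 with Agilent's intensities. *RT1-Db1* had probes at -0.88, -0.92 and, near background, -0.08, and was not called.

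Of the NF-kappaB subunits and targets, 2 of 16 rose and none fell, with a median of 0.12. These were the inhibitors of apoptosis *Birc3* (0.30) and *Birc2* (0.21), whose limma adjusted p of 0.00499 and 0.00439 lay just under the threshold, and their calls were lost in 7 and 8 of the 8 fits with 1 replicate left out and in 5 other settings each. *Nfkb2* (0.23) and the adhesion molecule *Icam1* (0.20) did not pass. No complement gene of 21 passed the threshold by limma (5 at an unadjusted p under 0.05), with a median of -0.02, and *C1s* at -0.25 and *C5ar1* at 0.21 had the largest ratios.

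**Figure D2:**
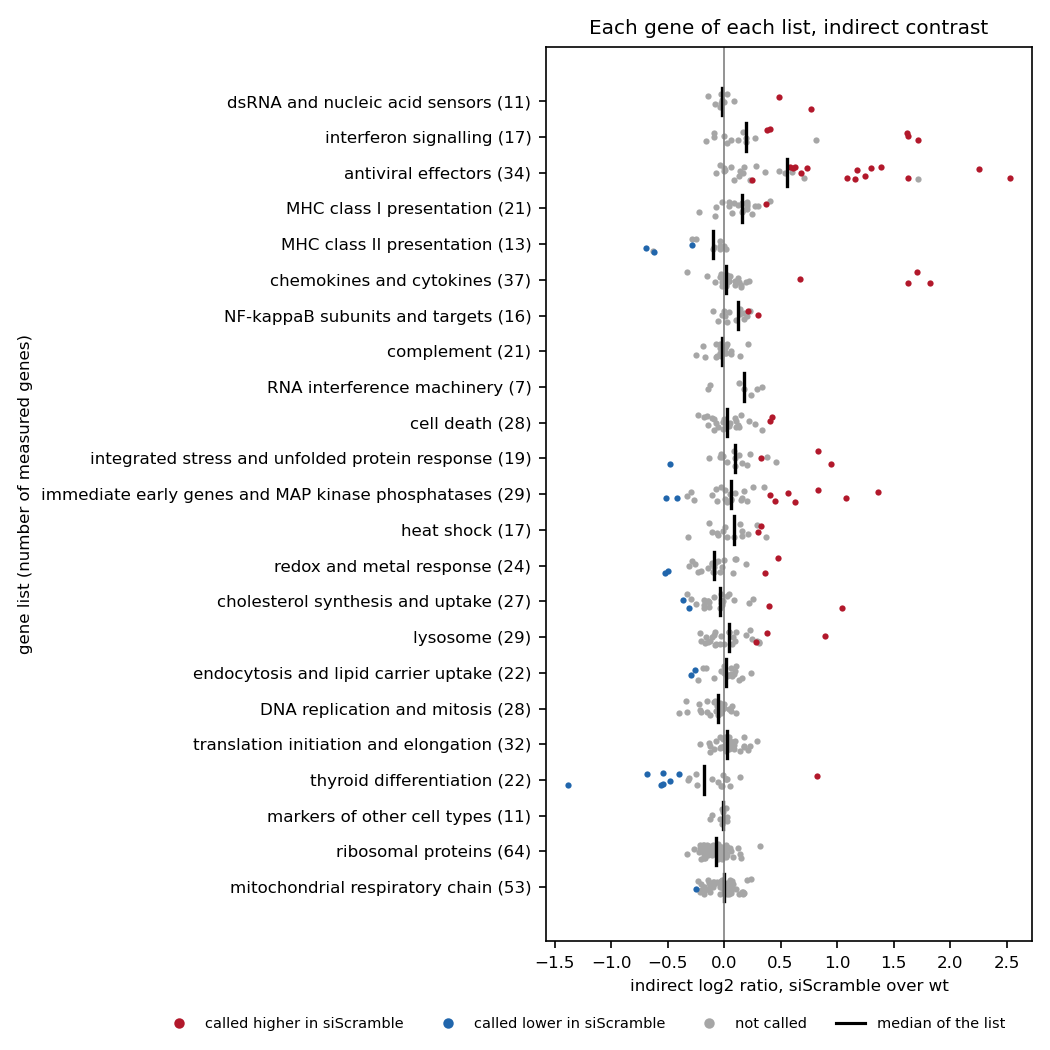
Indirect log2 ratio of siScramble over wt for each measured gene of the 23 lists, red where called higher, blue where called lower and grey where not called, with a black line at the median of each list; the number of measured genes stands in brackets. The antiviral effectors have the highest median, 0.56, and the thyroid genes the lowest, -0.18.

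The RNA interference machinery, which loads siRNAs and processes microRNAs, was measured for 7 of 21 listed genes, and none was called by limma (6 at an unadjusted p under 0.05, against 2065 of all 8899 named genes). The median of the indirect ratios was 0.18. *Ran*, the GTPase of nuclear transport, gave 0.23, 0.16, 0.04 and -0.02 against wt and -0.09, -0.29, -0.30 and -0.24 against siScramble, and missed the threshold at 0.34 (limma adjusted p = 0.00685). *Hsp90ab1* (0.29), *Eri1* (0.24), *Fmr1* (0.18), *Tarbp2* (0.13), *Snd1* (-0.12) and *Prkra* (-0.14) made up the rest. Argonaute genes and Dicer were not analysed here.

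The genes of stress and of the early response to stimulation moved in both directions. Of 29 immediate early genes and MAP kinase phosphatases, 7 rose and 2 fell, with a median of 0.06. *Egr1*, a zinc-finger factor induced within minutes of growth factor signals, gave 1.41, 1.17, 1.33 and 1.35 against wt and 0.10, -0.08, -0.16 and -0.06 against siScramble. *Fos*, a subunit of AP-1, gave 0.84, 0.93, 0.83 and 0.84 against wt and -0.24, -0.20, -0.19 and -0.25 against siScramble. The values against siScramble were near 0 for *Egr1* and below it for *Fos*, and the indirect ratios were 1.36 ± 0.07 and 1.08 ± 0.03 (SE; limma adjusted p of 1.14e-06 and 5.74e-07). *Klf6* rose by 0.63 and lost its call with siPax8 in Cy3 alone, while *Klf2* (0.35) and *Btg2* (-0.33) did not pass.

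Of 19 genes of the integrated stress and unfolded protein response, 3 rose and 1 fell, with a median of 0.10. *Ddit3* (CHOP), a factor induced when translation initiation is held back, gave 1.55, 1.32, 1.18 and 1.34 against wt and 0.50, 0.34, 0.41 and 0.32 against siScramble, an indirect ratio of 0.95 (limma adjusted p = 2.55e-05). *Atf3*, a repressor induced by many stresses, gave 0.64, 0.58, 0.43 and 0.51 against wt and -0.19, -0.31, -0.27 and -0.38 against siScramble. It was therefore highest in siScramble cells, with an indirect ratio of 0.83 (limma adjusted p = 9.15e-06) and a direct ratio of siPax8 over siScramble of -0.29 (0.0041). *Ppp1r15a* (GADD34), which restores translation, rose by 0.33 and lost its call in 7 of the 8 fits with 1 replicate left out. *Ddit4*, an inhibitor of mTORC1, had values of -0.05, -0.12, -0.33 and -0.38 against wt and 0.40, 0.25, 0.10 and 0.29 against siScramble, and its fall of -0.48 lost the call in 6 of these 8. Both also lost it with Agilent's intensities and with either dye orientation alone. *Trib3* (0.46) and *Atf5* (0.38) did not pass.

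Of 28 cell death genes, 2 rose, *Ripk3* of necroptosis (0.42, lost in 6 of the 8 fits with 1 replicate left out) and the inflammatory caspase *Casp4* (0.41, lost without replicate 4 against wt, in 1 of 8), and none fell. Agilent's intensities ended both calls, as did siPax8 in Cy5 alone, and siPax8 in Cy3 alone that of *Ripk3*. *Bbc3* (0.34) and *Casp12* (0.27) did not pass. Of 17 heat shock genes, the mitochondrial chaperonin *Hspe1* (0.30, lost in 3 of these 8 fits) and the co-chaperone *Dnaja1* (0.33) rose, and both lost the call with Agilent's intensities and with siPax8 in Cy3 alone. *Hsp90aa1* had 4 probes between 0 and 0.65, 2 of them past the threshold, and was not called, nor was *Hspa4* (-0.32).

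Of 24 redox and metal response genes, 2 rose and 2 fell, with a median of -0.09. The rises were *Nfe2l2* (0.48, NRF2, the regulator of antioxidant genes, lost in 5 of the 8 fits with 1 replicate left out) and *Txnip* (0.36, lost without replicate 3 against wt). Catalase, encoded by *Cat*, gave -0.30, -0.23, -0.29 and -0.24 against wt and 0.19, 0.21, 0.15 and 0.38 against siScramble, with values below 0 against wt and above 0 against siScramble, and an indirect ratio of -0.50 (limma adjusted p = 0.000193). The metallothionein *Mt3* gave -0.48, -0.57, -0.45 and -0.57 against wt and -0.05, -0.10, 0.23 and -0.06 against siScramble, an indirect ratio of -0.52 (limma adjusted p = 0.00086). Each of these 4 lost its call with Agilent's intensities and with siPax8 in Cy3 alone. *Prdx5* (-0.31) and *Sod1* (-0.28) did not pass.

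Of 27 genes of cholesterol synthesis and uptake, 2 rose and 2 fell, with a median of -0.04. The exporters *Abca1* and *Abcg1*, which hand cholesterol to lipoproteins, rose, and the synthesis genes *Idi1* (-0.36) and *Hsd17b7* (-0.31) fell. *Abca1* gave 1.65, 1.73, 1.72 and 1.74 against wt and 0.61, 0.66, 0.76 and 0.66 against siScramble, with a spread below 0.1 (SD) in either comparison. Its indirect ratio was 1.04 ± 0.04 (SE; limma adjusted p = 6.18e-07), or 2.05-fold. *Abcg1* gave 0.78, 0.71, 0.60 and 0.48 against wt and 0.30, 0.28, 0.20 and 0.19 against siScramble. Its ratio of 0.40 lost the call in 5 of the 8 fits with 1 replicate left out, and those of *Idi1* and *Hsd17b7* in 6 each. These 3 also lost it with Agilent's intensities and with siPax8 in Cy3 alone, and *Idi1* and *Hsd17b7* with siPax8 in Cy5 alone. *Hmgcs1* (-0.29), an early enzyme of the pathway, had 1 of 2 probes past the threshold and was not called.

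Of 29 lysosomal genes, 3 rose and none fell. Cathepsin L, encoded by *Ctsl*, gave 0.85, 1.00, 0.86 and 0.79 against wt and 0.09, 0.09, -0.19 and -0.05 against siScramble, an indirect ratio of 0.89 (limma adjusted p of its probes at most 4.86e-05). The direct ratio of siPax8 over siScramble was -0.02 (limma adjusted p = 0.946) and was not called. *Atp6ap1* of the proton pump (0.38) lost its call in 5 of the 8 fits with 1 replicate left out, with Agilent's intensities and with either dye orientation alone, and *Cd68* (0.31) and *Ctsa* (0.31) did not pass. Of 22 genes of endocytosis and lipid carrier uptake, *Dnm1* (-0.29) and *Flot2* (-0.26, lost in 6 of these 8 fits) fell, and both lost the call with Agilent's intensities (where *Dnm1* was -0.50) and with siPax8 in Cy5 alone, and *Flot2* with siPax8 in Cy3 alone and with the slide as a block. *Dnm2* (-0.23) and *Ap2m1* (0.24) did not pass.

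Lists of growth and housekeeping showed no called gene, or 1. None of 28 genes of DNA replication and mitosis was called by limma (6 at an unadjusted p under 0.05), with a median of -0.05 and *Ccnd2* at -0.40 and *Rrm2* at -0.34 as the farthest from 0. None of 32 genes of translation initiation and elongation was called (8 at an unadjusted p under 0.05), with a median of 0.03, and *Eif2b4* (0.29) and *Eef1d* (0.23) did not pass. None of 64 ribosomal protein genes was called (24 at an unadjusted p under 0.05). Of the 64 genes, 50 had a value below 0, against 4606 of all 8899 named genes. Their median was -0.07, with *Rps20* at -0.33 and *Rps29* at 0.32 as the farthest from 0. Of 53 genes of the respiratory chain, *Uqcrc1* fell (-0.25, lost in 7 of the 8 fits with 1 replicate left out, with Agilent's intensities and with either dye orientation alone), the median was 0, and *Atp5me* (0.24) and *Ndufv1* (-0.23) did not pass.

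The genes of thyroid differentiation had the lowest median of the 23 lists. Of 22 measured genes, 7 fell (31.8%, against 2.79% of all named genes) and 1 rose, with a median of -0.18, and within the slides the median lay between -0.23 and -0.11. *Pax8* itself was lower in siPax8 than in wt cells, with log2 ratios of -0.84, -0.57, -0.59 and -0.26, and gave -0.58, -0.29, -0.12 and -0.01 against siScramble, a ratio that was not called (limma adjusted p = 0.143). These overlap, and the indirect ratio of -0.32 ± 0.17 (SE) was not called either (limma adjusted p = 0.183). *Slc5a5*, the sodium iodide symporter that brings iodide into the cell, gave -0.59, -0.69, -0.53 and -0.61 against wt and 0.15, 0.13, -0.05 and 0.05 against siScramble. Its values against siScramble scattered around 0 (mean 0.07, limma adjusted p = 0.364), and the indirect ratio was -0.68 ± 0.06 (SE; limma adjusted p = 2.64e-05), so siScramble cells had a 1.6-fold lower level than wt cells.

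**Figure D3:**
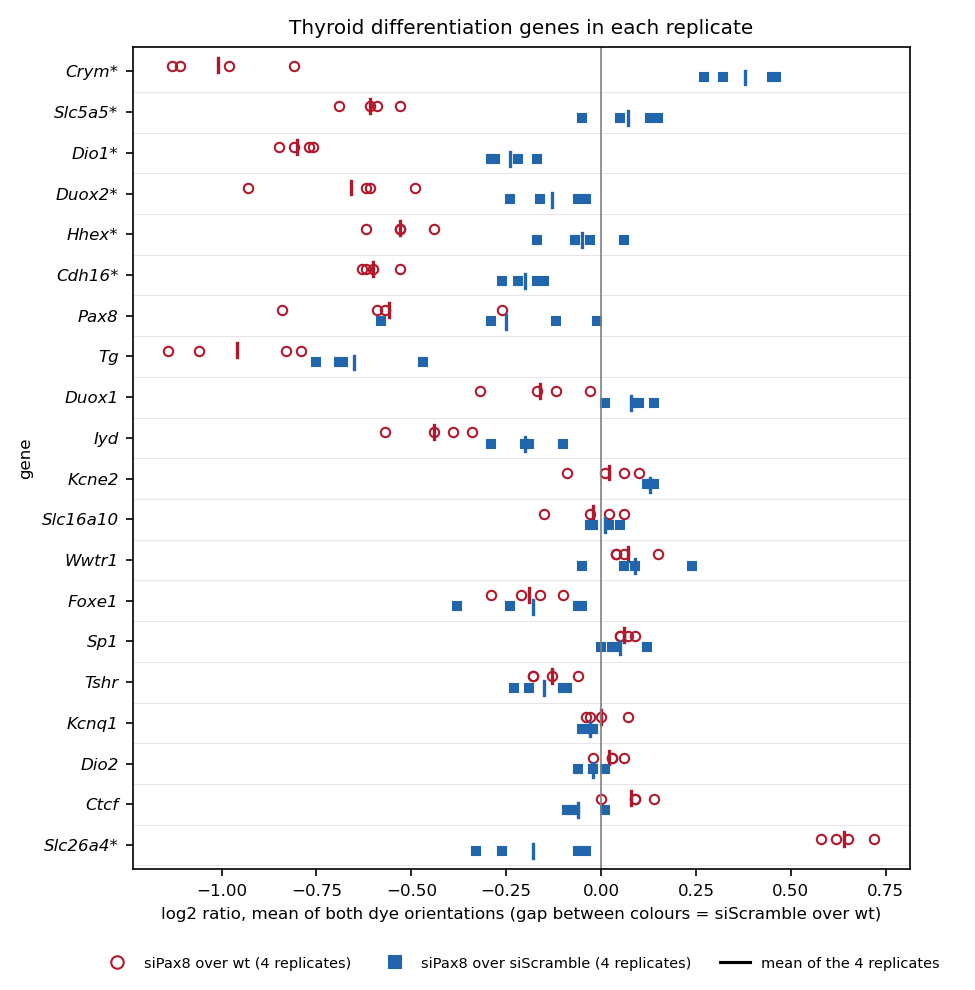
Log2 ratios of siPax8 over wt (open circles) and of siPax8 over siScramble (filled squares) in the 4 replicates of 20 measured thyroid genes, ordered by the indirect ratio, with vertical lines at the means and an asterisk where the indirect contrast was called. The colours are separated for *Crym* at the top and, in the other direction, for *Slc26a4* at the bottom, and overlap for *Pax8*, *Foxe1* and *Tshr*.

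*Duox2*, the oxidase that makes hydrogen peroxide for hormone synthesis, gave -0.93, -0.49, -0.61 and -0.62 against wt and -0.24, -0.04, -0.06 and -0.16 against siScramble. Its fall of -0.54 lost the call in 5 of the 8 fits with 1 replicate left out. *Dio1*, the deiodinase that makes T3, gave -0.85, -0.76, -0.77 and -0.81 against wt and -0.28, -0.29, -0.17 and -0.22 against siScramble, an indirect ratio of -0.56 (limma adjusted p of its probes at most 0.000231). *Hhex*, a homeobox factor of thyroid development, gave -0.53, -0.62, -0.44 and -0.53 against wt and -0.03, -0.07, -0.17 and 0.06 against siScramble, with an indirect ratio of -0.48 (limma adjusted p = 0.000355). The cadherin *Cdh16* fell by 0.40 on the log2 scale and lost its call in 7 of the 8 fits with 1 replicate left out. Agilent's intensities ended the calls of *Dio1*, *Hhex*, *Duox2* and *Cdh16*, which had -0.67 there, and siPax8 in Cy3 alone those of *Duox2* and *Cdh16*.

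*Crym*, which binds thyroid hormone in the cytoplasm, showed the largest fall of all named genes with the background correction used here. It gave -0.81, -1.13, -0.98 and -1.11 against wt and 0.45, 0.27, 0.46 and 0.32 against siScramble. Its level was therefore lowest in siScramble cells, with an indirect ratio of -1.38 ± 0.09 (SE; limma adjusted p = 1.83e-06), or 2.61-fold, and a direct ratio of siPax8 over siScramble of 0.38 (limma adjusted p = 0.00208). *Slc26a4* (pendrin), an anion exchanger of the apical membrane, was the thyroid gene that rose, with 0.72, 0.65, 0.62 and 0.58 against wt and -0.04, -0.06, -0.26 and -0.33 against siScramble. Its indirect ratio was 0.82 ± 0.08 (SE; limma adjusted p = 3.77e-05).

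*Tg*, which encodes thyroglobulin, gave -1.14, -1.06, -0.83 and -0.79 against wt and -0.69, -0.68, -0.75 and -0.47 against siScramble. Unlike *Slc5a5*, it was lower in siPax8 cells than in siScramble cells too (-0.65, limma adjusted p = 0.000527), and the indirect ratio of -0.31 did not pass the threshold (limma adjusted p = 0.0406). The TSH receptor gene *Tshr* (0.02) and the factor *Foxe1* (-0.01) lay near 0, as did *Sp1* (0.02), *Wwtr1* (-0.02) and *Dio2* (0.05). *Duox1* (-0.25), *Iyd* (-0.24), *Kcne2* (-0.11) and *Ctcf* (0.14) did not pass either. *Slc16a10* and *Kcnq1* were not above background on any wt or siScramble array.

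The remaining genes with the largest rises outside the lists were *Lgals5* and *Slk*. *Slk*, a kinase of the STE20 group, gave 1.71, 1.64, 1.66 and 1.31 against wt and 0.11, 0.62, 0.45 and -0.12 against siScramble, an indirect ratio of 1.31 (limma adjusted p = 0.000299) that lay between 1.03 and 1.77 within the slides and lost its call with siPax8 in Cy5 alone. The largest falls came from genes of varied roles. *Nppc*, which encodes C-type natriuretic peptide, gave -1.25, -1.39, -1.35 and -1.36 against wt and 0.17, 0.10, 0.04 and -0.27 against siScramble. *Wnt4*, a secreted signal of epithelial development, gave -1.39, -1.24, -1.11 and -1.25 against wt and -0.17, -0.03, -0.12 and -0.04 against siScramble. For both, the values against siScramble lay near 0 and those against wt below -1, with indirect ratios of -1.35 ± 0.10 and -1.16 ± 0.07 (SE; limma adjusted p of 5.47e-06 and 1.63e-06). Neither differed in the direct ratio of siPax8 over siScramble beyond the threshold (limma adjusted p of 0.962 and 0.166).

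**Figure D4:**
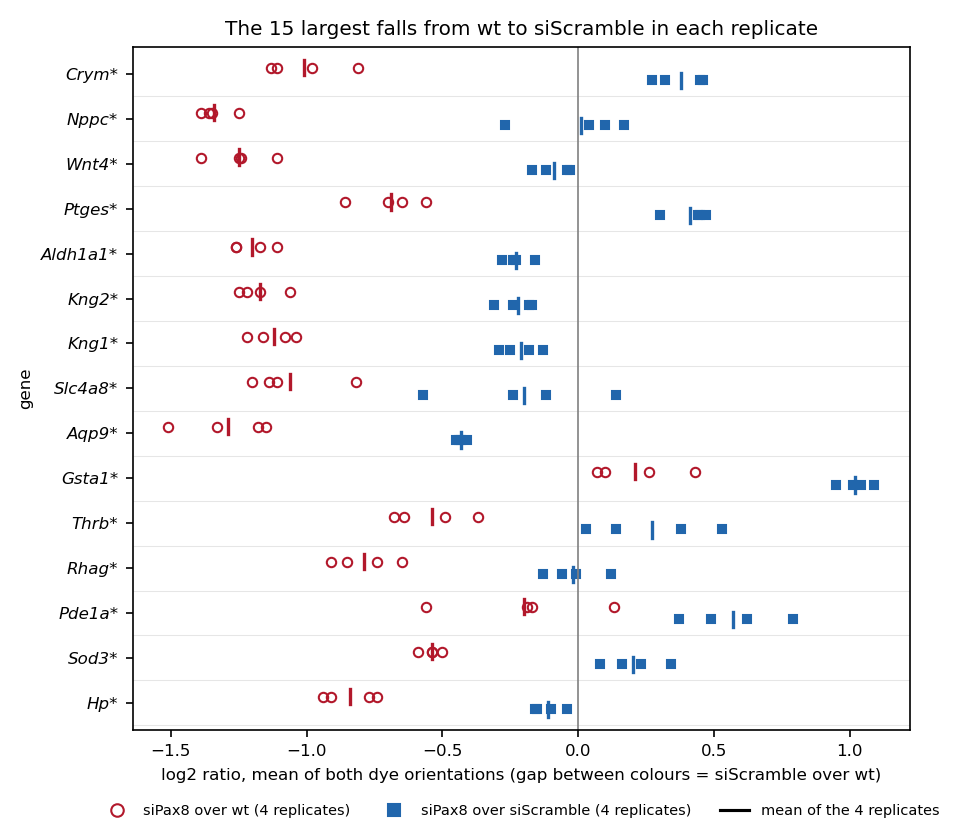
Log2 ratios of siPax8 over wt (open circles) and of siPax8 over siScramble (filled squares) in the 4 replicates of the 15 named genes with the largest falls from wt to siScramble cells, with vertical lines at the means. The squares of *Crym*, *Ptges*, *Gsta1* and *Thrb* lie above 0, whereas those of *Aldh1a1*, *Kng1*, *Kng2* and *Aqp9* lie below it.

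*Ptges*, the prostaglandin E synthase, gave -0.86, -0.70, -0.65 and -0.56 against wt and 0.44, 0.45, 0.47 and 0.30 against siScramble. Like *Crym* it was lowest in siScramble cells, with an indirect ratio of -1.11 (limma adjusted p = 3.21e-06). *Gsta1*, a glutathione transferase, gave 0.43, 0.07, 0.10 and 0.26 against wt and 1.04, 0.95, 1.01 and 1.09 against siScramble. Its mean ratio was 0.21 to wt, which was not called (limma adjusted p = 0.021), and 1.02 to siScramble, and the indirect ratio was -0.81 (limma adjusted p = 8.16e-05). *Thrb*, the thyroid hormone receptor beta, gave -0.64, -0.37, -0.68 and -0.49 against wt and 0.03, 0.53, 0.14 and 0.38 against siScramble, an indirect ratio of -0.81. The extracellular superoxide dismutase *Sod3* gave -0.59, -0.54, -0.50 and -0.54 against wt and 0.34, 0.23, 0.08 and 0.16 against siScramble, with an indirect ratio of -0.75.

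*Aldh1a1*, which makes retinoic acid, gave -1.26, -1.11, -1.17 and -1.26 against wt and -0.23, -0.24, -0.16 and -0.28 against siScramble. Its indirect ratio was -0.97, and its direct ratio of siPax8 over siScramble was -0.23 (limma adjusted p = 0.00482), so the order of levels was wt, siScramble, siPax8. The kininogen genes *Kng2* (-0.95) and *Kng1* (-0.91), whose probes may share signal because the genes are near-identical, and the channel *Aqp9* (-0.86) also had direct ratios below 0, of -0.22, -0.21 and -0.43, of which that of *Aqp9* was called (limma adjusted p = 0.000223). *Slc4a8* (-0.87), *Rhag* (-0.77), *Pde1a* (-0.77) and haptoglobin, encoded by *Hp* (-0.73), completed the 15. The calls of *Slc4a8* and *Pde1a* were lost in 4 and 6 of the 8 fits with 1 replicate left out, and both with Agilent's intensities and with siPax8 in Cy3 alone. Agilent's intensities also ended the call of *Thrb*, and gave ratios of -1.68 for *Rhag*, -1.57 for *Gsta1* and -1.35 for *Aqp9*.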

How the data were processed

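Expression arrays of PCCl3 cells were analysed: 16 Agilent 2-colour arrays, with 3 conditions, 2 comparisons and 4 biological replicates in both dye orientations, on 4 slides scanned on 1 day. Groups, dyes and replicate numbers came from the labels. The authors deposited scanner files with fluorescence intensities (mean and local background per spot, and intensities corrected and dye-normalized by Feature Extraction 10.1.1.1 per the file headers; the study's methods name another version). The log10 ratios in these files, as the authors deposited them, are of Cy5 over Cy3 and were not tested by themselves. The authors also deposited a table of normalized log2 ratios, whose column medians lay between -0.000736 and 0.00828 and whose correlations with the ratios computed here lay between -0.999 and -0.993, so that it holds control over siPax8.

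Of 45018 spots, 1639 were controls and 112 to 215 per array were outliers. With limma 3.58.1, statmod 1.5.0 and data.table in version 1.17.8 under R 4.3.3, intensities were corrected with normexp (offset 50), normalized by loess within and quantiles between arrays, and repeated spots and then both dye orientations of each replicate were averaged. The indirect ratio is the mean log2 ratio of siPax8 over wt minus that of siPax8 over siScramble. It was tested with lmFit and eBayes on the 8 averaged values as separate groups, with Benjamini-Hochberg adjustment over 41012 probes and a threshold of 0.005. The shared siPax8 samples are not modelled in this fit. The SE of a gene comes from the spread of its 4 and 4 values. On simulated data for this contrast over 41012 probes, 80% of 200 changes of 0.5 and 98.5% of 200 changes of 1 (log2) were recovered. Of the unchanged probes, 0 and 1 were called. Whether these numbers hold with siPax8 samples shared between the comparisons, or with effects of slide and dye, was not tested.

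Names came from RefSeq accessions (GRCr8, names and promoters only) and were found for 10768 probes, while 30244 had none. Probes of 1 gene were averaged. Members and gene lists were chosen with earlier results of these data known. Named were all measured genes of the sensor, interferon signalling, antiviral, RNA interference and thyroid lists, up to 4 called genes and up to 2 others of each remaining list, and the 15 largest called rises and falls. Some genes that the rule takes are not reported here. Genes outside this rule are marked as chosen after their values were seen. Alternatives were the Agilent intensities, loess alone, the authors' table, dim probes left out, a replicate block, each dye orientation alone, a slide block, a dye term, single channels and each replicate left out.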

Additional observations from a re-analysis of the deposited data

Results flagged for a closer look

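Of 116 groups of 4 replicate values of the genes described in detail, 6 held 1 value farther from the others than Dixon's critical ratio for 4 samples allows. Chance flags about 1 group in 20. For siPax8 over wt, replicate 1 of *Mx1* was 1.43 (the others 0.82 to 0.89), replicate 1 of *Slfn4* was 2.44 (1.64 to 1.76) and replicate 2 of *Fos* was 0.93 (0.83 to 0.84). For siPax8 over siScramble, replicate 4 of *Tlr3* was -0.21 (-0.05 to -0.02), replicate 3 of *Mt3* was 0.23 (-0.10 to -0.05) and replicate 4 of *Ptges* was 0.30 (0.44 to 0.47).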

How the results depend on the processing

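No gene was called in the opposite direction under any of the 18 alternatives, and of the 87 called genes named here 43 kept their call in all of them and 44 lost it in at least 1. The probes called, 677 higher and 732 lower in the main setting, numbered 240 and 203 with Agilent's intensities (54.2% higher, against 48.0%, with the median of all probes at -0.0306), 382 and 405 with siPax8 in Cy5 only, 293 and 304 in Cy3 only, 1168 and 1199 with the slide as a block, 1321 and 1346 with a dye term and 2314 and 2323 with single channels. With 1 replicate left out the number higher ranged from 332 to 582 and the number lower from 374 to 648, and both were smallest without replicate 3 against wt. With the replicate block they numbered 1142 and 1163, and 151 of the 158 genes higher and 244 of the 248 genes lower remained called. Of the same genes higher and lower, 53 and 73 remained called with Agilent's intensities and 72 and 104 with siPax8 in Cy3 only. Leaving out replicate 3 against wt kept 81 and 137. Deviations of same-numbered replicates correlated with 0.4, 0.17, 0.045 and 0.57 between the comparisons, and replicate 3 with 0.41 with another number, so not every replicate correlated best with its own number and the block was not used as the main setting. With Agilent's intensities the list medians became 0.72 (antiviral), -0.29 (MHC class II), 0.09 (chemokines), -0.08 (complement), 0.28 (RNA interference), 0.19 (immediate early) and -0.28 (thyroid). With dim probes left out they were -0.28 (MHC class II), 0.14 (chemokines), 0.14 (NF-kappaB), 0.15 (heat shock) and -0.24 (thyroid), with the authors' values 0.03 (respiratory chain), with Cy5 only 0.01 (sensors), and with Cy3 only 0.09 (NF-kappaB) and 0.01 (complement, which changed sign). With 1 replicate left out the medians lay between -0.03 and 0.01 for sensors, -0.03 and 0 for complement and 0.03 and 0.12 for heat shock. The cause of these shifts was not tested. Signals near background limit the ratios of dim probes.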

Other observations

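Some families outside the lists held several called genes, and these families and genes were chosen after their values were seen. Such a choice favours families with many calls, so their counts are only a description. Of 15 glutathione S-transferase genes, 4 fell (26.7%, against 2.79% of all named genes) and none rose, with a median of -0.03. Besides *Gsta1*, these included *Gstm1*, with -0.52, -0.42, -0.35 and -0.45 against wt and 0.21, 0.15, 0.04 and 0 against siScramble, and *Gstm2*, with -0.46, -0.23, -0.18 and -0.17 against wt and 0.30, 0.40, 0.35 and 0.35 against siScramble. Their indirect ratios were -0.53 and -0.61 (limma adjusted p of 0.000178 and 0.000172; -1.23 and -0.96 with Agilent's intensities), and transferases of this class may share signal.

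Of 18 cyclic nucleotide phosphodiesterase genes, 6 fell (33.3%, against 2.79% of all named genes) and none rose, with a median of -0.12. *Pde10a* gave -0.67, -0.55, -0.47 and -0.38 against wt and 0.06, 0.14, 0.25 and 0.38 against siScramble, an indirect ratio of -0.72 (limma adjusted p = 0.000209). *Pde4d*, which degrades cAMP, had an indirect ratio of -0.56 (limma adjusted p = 0.00377) and lost its call in 6 of the 8 fits with 1 replicate left out, with Agilent's intensities and with siPax8 in Cy3 alone. *Crem* and *Sik1* belong to none of the lists and were likewise chosen after their values were seen, and a change in cAMP was not tested. *Crem* gave -0.63, -0.76, -0.80 and -0.80 against wt and 0.02, -0.11, -0.06 and -0.02 against siScramble, an indirect ratio of -0.71 (limma adjusted p = 1.26e-05). *Sik1* gave -0.91, -1.16, -0.90 and -1.13 against wt and 0.01, -0.26, -0.57 and -0.55 against siScramble, and its ratio of -0.68 (limma adjusted p = 0.00437) lost the call in 5 of these 8 fits, with Agilent's intensities and with siPax8 in Cy5 alone. Of 34 proteasome genes none was called by limma (15 at an unadjusted p under 0.05, against 2065 of all 8899 named genes), with a median of 0.05.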
